A study of Mus musculus with 16 samples.

Results

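The genes described are the histone genes of the mouse whose RefSeq symbols place them in the replication-dependent series. They were chosen by symbol alone, from the protein-coding genes of GRCm38.p6 on chromosomes 1 to 19: symbols beginning with Hist1h to Hist4h, or with H1f, H2ac, H2bc, H3c or H4c and a number. The rule found 67 of 20665 genes, of which 53 lie on chromosome 13, 10 on chromosome 3, 2 on chromosome 6 and 2 on chromosome 15. The table uses the newer symbols throughout, so H2ac8, for example, is the gene formerly called Hist1h2ae. The label is not met by every gene the rule takes in. The 4 genes on chromosomes 6 and 15 (H1f10, H1f8, H1f0 and H1f7) are linker histone variants that stand alone and are not tied to DNA replication, and they are described apart from the 63 genes in the clusters.

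Replication-dependent histone genes encode the core histones H2A, H2B, H3 and H4 and the linker histone H1, and are transcribed while DNA is copied, when new nucleosomes must be built. They lie in clusters of many short genes without introns, and their transcripts end in a stem-loop in place of a poly(A) tail. Their transcription gathers in a nuclear body that holds NPAT, the coactivator of the histone genes and a substrate of the cyclin E kinase. Newly made histones are needed at each cleavage of the early embryo, at a time when its own genome is being switched on.

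The study measured acetylation of lysine 27 and trimethylation of lysine 4 of histone H3 (H3K27ac and H3K4me3) in late 2-cell mouse embryos, aged 36 h from fertilization. The assay was ultra-low-input native ChIP-seq, in which micrococcal nuclease cuts uncrosslinked chromatin and an antibody collects the fragments. H3K27ac marks enhancers and promoters in use, and H3K4me3 chiefly promoters. The embryos had been injected as zygotes with water (the water group) or with mRNA of an Hdac1 mutant (the mutant group). Hdac1 encodes a deacetylase that removes acetyl groups from histones, and the comparison asks whether interference with it alters where both marks lie. All embryos of both groups were thus injected, and the labels name neither the mutation nor the strain, nor the number of embryos in a library. Injected mRNA acts beside the embryo's own Hdac1, which the labels do not say was removed.

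The 16 libraries formed 8 groups of 2, an immunoprecipitation group and an input group for each mark in each condition. What was analysed were 4 deposited peak lists, 1 for each immunoprecipitation group, which give the position of each peak and no height. There is therefore no replicate error, no read depth and no test of the conditions, and every difference below is one between single lists. On chromosomes 1 to 19 the lists held 73320 (water) and 114737 (mutant) H3K27ac peaks and 83220 and 83290 H3K4me3 peaks. Of 10 genes that mark the 2-cell stage, such as Zscan4d and Dppa2, 10 had an H3K27ac peak in each condition and 9 an H3K4me3 peak. Of 6 genes of the cumulus and granulosa cells that surround the oocyte, H3K27ac marked 1 (Amh) in water and 3 in mutant, and H3K4me3 marked 3 and 5. Of 6 genes of differentiated tissues H3K27ac marked 0 and 2, and H3K4me3 1 and 1 (Neurod1). The part of other cells in the results was not tested.

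The sequence of the genes is described first, since it sets the families apart and bears on how reads can be placed. RefSeq promoter sequences of GRCm38.p6, running from 250 bases before to 50 bases after each start, were matched to 62 of the 67 genes, 58 of them in the clusters. H2bc21, H4c14, H3c7, H2bc4 and H3c1 had none. Each promoter was searched on both strands for 4 motifs long known from histone promoters, and matches were allowed to overlap. The CCAAT box, bound by the factor NF-Y, was present in 50 of 58 cluster promoters (86.2%), against 37.9% of the 27025 promoters in the table. It was found in all 6 H1, 17 H2A, 14 H2B and 10 H3 promoters searched, but in only 3 of 11 H4 promoters. The core of the H4 element, GGTCCG, showed the reverse distribution, with 10 of 11 H4 promoters, 1 H2B and 1 H3 promoter, against 8.39% of all promoters. The TATA box, with the letters TATAAA, was present in 34 cluster promoters (58.6%) and in 14.2% of all promoters. The octamer ATTTGCAT, a binding site of Pou2f1 (Oct-1), was present in 6 of 17 H2A and 6 of 14 H2B promoters and in no H1, H3 or H4 promoter searched, against 1.75% of all promoters. Genes that lie back to back share promoter sequence, so the same motif can be counted for both, as was the octamer of H2ac12 and H2bc12. A match is a description of the letters and not of a bound site.

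The H4 promoters are shown by a pair of genes that differed in their marks: H4c9 (chr13:22041363-22041612, minus strand), which had both marks in both conditions, and H4c6 (chr13:23551669-23551918, minus strand), which had H3K27ac in water only. Each line gives the 250 bases before the start, 5′ to 3′, with the TATA letters and the H4 element core in capitals.
H4c9: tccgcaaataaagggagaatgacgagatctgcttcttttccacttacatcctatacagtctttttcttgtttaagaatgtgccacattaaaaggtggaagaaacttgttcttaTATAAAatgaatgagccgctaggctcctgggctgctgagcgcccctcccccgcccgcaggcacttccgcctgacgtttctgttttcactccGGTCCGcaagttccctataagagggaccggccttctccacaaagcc
H4c6: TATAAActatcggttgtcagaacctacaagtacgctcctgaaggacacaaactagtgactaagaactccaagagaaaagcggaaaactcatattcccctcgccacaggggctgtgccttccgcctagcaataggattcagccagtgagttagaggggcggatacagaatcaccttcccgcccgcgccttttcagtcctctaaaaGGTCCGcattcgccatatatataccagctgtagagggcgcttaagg
Both carry the H4 element core close to the start, and in both the exact TATA letters lie farther upstream.

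The H3 promoters are shown by 3 genes: H3c3 (chr13:23745522-23745771, minus strand), which kept both marks, H3c8 (chr13:23535168-23535417, plus strand), which had H3K27ac in water only, and H3c4 (chr13:23575513-23575762, plus strand), which had H3K4me3 in water only. Capitals mark CCAAT boxes, read as ATTGG on the other strand, and TATA boxes, read as TTTATA on the other strand.
H3c3: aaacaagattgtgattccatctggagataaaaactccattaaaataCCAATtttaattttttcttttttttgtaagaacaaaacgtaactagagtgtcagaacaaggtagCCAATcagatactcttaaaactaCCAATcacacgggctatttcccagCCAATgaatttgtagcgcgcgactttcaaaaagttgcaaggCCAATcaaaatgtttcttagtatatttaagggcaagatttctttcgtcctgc
H3c8: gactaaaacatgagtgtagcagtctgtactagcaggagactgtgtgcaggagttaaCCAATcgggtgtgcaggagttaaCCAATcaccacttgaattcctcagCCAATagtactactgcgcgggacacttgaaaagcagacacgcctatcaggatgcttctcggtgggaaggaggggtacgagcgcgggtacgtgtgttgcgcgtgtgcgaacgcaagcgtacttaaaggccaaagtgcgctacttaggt
H3c4: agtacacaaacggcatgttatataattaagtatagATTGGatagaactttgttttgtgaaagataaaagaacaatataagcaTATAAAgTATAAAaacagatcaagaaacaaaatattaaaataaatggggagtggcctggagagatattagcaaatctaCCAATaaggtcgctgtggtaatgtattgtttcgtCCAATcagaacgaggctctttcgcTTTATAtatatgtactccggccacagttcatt
All 3 hold several CCAAT boxes, whatever the fate of their marks.

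H2A and H2B genes often lie back to back and share the sequence between their starts. Among the genes with a known strand there were 9 such divergent pairs, with 163 to 280 bases between the starts (median 179). The 2 spacers shown are that of H2ac12 and H2bc12 (chr13:22035644-22035820), whose genes had both marks in both conditions, and that of H2bc7 and H2ac7 (chr13:23574208-23574380), whose genes had H3K4me3 in water only. They are written on the plus strand with CCAAT boxes of either strand and the octamer in capitals.
H2ac12 to H2bc12: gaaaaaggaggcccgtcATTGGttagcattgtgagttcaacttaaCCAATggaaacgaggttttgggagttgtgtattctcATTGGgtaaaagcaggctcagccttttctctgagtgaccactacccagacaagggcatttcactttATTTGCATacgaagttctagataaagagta
H2bc7 to H2ac7: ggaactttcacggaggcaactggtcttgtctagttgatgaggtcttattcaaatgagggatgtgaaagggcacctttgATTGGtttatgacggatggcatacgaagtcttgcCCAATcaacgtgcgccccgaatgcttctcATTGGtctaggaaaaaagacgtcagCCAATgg
Both spacers hold CCAAT boxes on both strands, and the first also holds an exact octamer.

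Copies of one another are common among the histone genes. The promoters of H4c17 and H4c18 shared an exact run of 285 bases, those of H2ac24 and H2bc23 233, H3c14 and H3c15 231, H2ac18 and H2ac19 219, and H2ac23 and H2ac24 200. In all, 9 genes shared 100 bases or more with another. Reads from such stretches fit more than 1 place, and how they were treated is not given in the sources used here. A peak touched the body of 1, 0, 3 and 2 of these 9 genes in the water H3K27ac, mutant H3K27ac, water H3K4me3 and mutant H3K4me3 lists, and of 31, 25, 58 and 44 of the other 58 genes. Calls at the 9 genes (H3c15, H2ac19, H2ac18, H3c14, H2bc23, H2ac23, H4c17, H4c18 and H2ac24) are uncertain wherever they are named below.

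At the start of the comparison, nearly every histone gene carried H3K4me3. A gene was counted as marked when a peak overlapped, by at least 1 bp, the windows of 2 kb on each side of either gene end. In water-injected embryos 64 of 67 histone genes were marked by H3K4me3 (95.5%, 95% Wilson interval 87.6 to 98.5), against 76.4% of all protein-coding genes. In mutant embryos 56 were marked (83.6%, 72.9 to 90.6), against 75.1%. The 3 genes without H3K4me3 in water (H2bc23, H2ac23 and H4c17) are neighbours and belong to the 9 near-identical copies, so all 58 other histone genes were marked. The intervals cover the counting of genes only, and neighbouring genes share peaks, so the genes are not independent.

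H3K27ac marked 45 of 67 histone genes in water-injected embryos (67.2%, Wilson interval 55.3 to 77.2), against 56.3% of all genes. In mutant embryos it marked 42 (62.7%, 50.7 to 73.3), against 59.3%. The genes marked were not the same in both lists. Of the 45 genes marked in water, 14 had no H3K27ac peak in mutant embryos (31.1%, against 22.6% of all genes marked in water), and of the 22 unmarked genes 11 had one in mutant embryos (50%, against 35.9%). With windows of 5 kb these counts were 9 and 2. The share lost was then 15.3% of the marked histone genes against 14.2% of all marked genes, so the excess depended on the window. At 5 kb 59 of the 67 histone genes were marked in water, which left fewer to gain H3K27ac. The share of all genes gaining it was not computed there, so the higher share of gains holds for the 2 kb windows only. The water peaks nearest to the 11 genes lay 2038 to 5690 bp away.

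**Figure D1:**
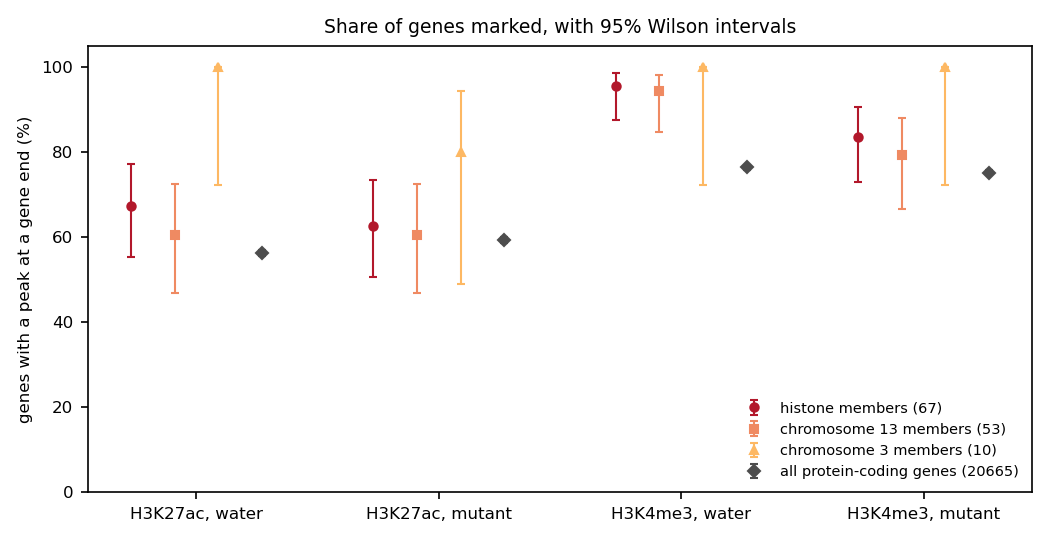
Share of genes with a peak at a gene end (vertical axis, percent) in the 4 peak lists, for the 67 histone genes, those on chromosomes 13 and 3, and all 20665 protein-coding genes; bars are 95% Wilson intervals over genes. The H3K4me3 share of the histone genes was 95.5% in water and 83.6% in mutant embryos, while that of all genes was 76.4% and 75.1%.

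For H3K4me3 only 3 histone genes were unmarked in water, so few could gain it. Of the 64 genes marked in water, 11 had no peak in mutant embryos (17.2%), against 8.14% of all genes marked in water. All 3 unmarked genes, H2bc23, H2ac23 and H4c17, had it in mutant embryos (100%, against 20.8% of all genes unmarked in water), from a single 394 bp peak among near-identical copies. Across windows of 1 and 5 kb, a larger minimum overlap, other limits on the lists and the sets of genes tried, the share of histone genes losing H3K4me3 was 14.1% to 20.3%, and that of all genes 6.45% to 10.1%.

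The 11 genes that lost H3K4me3 all lie on chromosome 13 and fall into 4 runs of neighbours. The longest run, from 23570663 to 23576266, holds H2ac8, H2bc8, H2bc7, H2ac7 and H3c4, which encode H2A, H2B and H3. In water, peaks of 1787 and 3758 bp covered the whole body of each of these 5 genes, and 39.2% to 76.7% of their windows. In mutant embryos the nearest H3K4me3 peak lay 5752 bp from H3c4 and 10798 bp from H2ac8. The next run holds H4c12, H2ac15 and H2bc15 (21750145 to 21754553). Their gene bodies were fully covered in water, whereas the nearest mutant peak was 7369, 10601 and 11300 bp away. H2ac4 and H3c2 (23751088 to 23752840) form the third run, with mutant peaks 3291 and 4230 bp away, and H2ac6 stands alone at 5693 bp. By family, the losses comprised 5 of 16 marked H2A genes and 3 of 15 marked H2B genes, against 8.14% of all marked genes. The other losses were the H3 genes H3c2 and H3c4 and the H4 gene H4c12.

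In the clusters H3K4me3 marked 16 of 17 H2A genes in water and 12 in mutant, 15 and 13 of 16 H2B genes, 12 and 10 of 12 H3 genes, 11 and 11 of 12 H4 genes, and all 6 H1 genes in both. H3K27ac marked 12 and 11 of the H2A genes, 12 and 12 of the H2B genes, 9 and 8 of the H3 genes, 6 and 6 of the H4 genes and 3 and 3 of the H1 genes. Over all genes the shares were 76.4% and 75.1% for H3K4me3 and 56.3% and 59.3% for H3K27ac, and families of this size do not allow a reading against them. Equal counts did not mean the same genes. Among H4 genes, H3K27ac was in water only at H4c1, H4c4, H4c6 and the copy H4c18, and in mutant only at H4c2, H4c8, H4c11 and H4c12. Among H1 genes it was in water only at H1f3 and in mutant only at H1f2.

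H3K27ac losses fell into 8 runs. On chromosome 13 they included H2ac10 with H3c8, H4c6 with H1f3 and H3c6, H4c4 with H2bc6, and H2ac7 and H4c1 singly. A peak of 15670 bp in water (23535396 to 23551065) reached 5 genes, H2ac10, H3c8, H2bc9, H3c7 and H4c6. In its place the mutant list had peaks of 1541 and 981 bp, so that H2bc9 and H3c7 kept a mark and the other 3 did not. H4c4 had 70.9% of its window under a 6062 bp peak in water, and its nearest mutant peak was 9518 bp away. H1f8 on chromosome 6 was a further loss. H4c18 and H2ac24 on chromosome 13 and H3c15 and H2ac19 on chromosome 3 belong to the near-identical copies, and without the 9 copies the losses numbered 10 of 39 (25.6%, against 22.6% of all genes).

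The 11 genes with H3K27ac in mutant embryos only were H2ac13 and H3c10, H4c11, H4c12 and H2ac15, H4c8, H1f2, H3c2 and H4c2, and H2bc1 and H2ac1. At several of them only the edge of a peak reached the window. At H4c12 the mutant peak covered 3.24% of the window, at H2ac13 9.13% and at H1f2 9.27%. At H4c2 a whole peak of 461 bp lay in the window and covered 10.4% of it. H4c8 instead had 58.3% of its window and its whole body under a 2953 bp peak, and H2ac15 had 76.3% of its window covered.

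H2bc1 and H2ac1 showed the widest gain. They form a divergent pair known for its expression in the male germ line, and lie apart from the rest (23933725 to 23934913). In water neither had an H3K27ac peak within 3781 bp, and H3K4me3 peaks of at most 2781 bp covered 70.1% and 60.1% of their windows. In mutant embryos a 12095 bp H3K27ac peak covered 92% and 100% of the windows, and a 13236 bp H3K4me3 peak covered both windows completely. H1f6, the linker histone of spermatocytes, did not share this: it had no H3K27ac peak in either condition, and H3K4me3 covered 73.4% of its window in water and 81% in mutant.

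**Figure D2:**
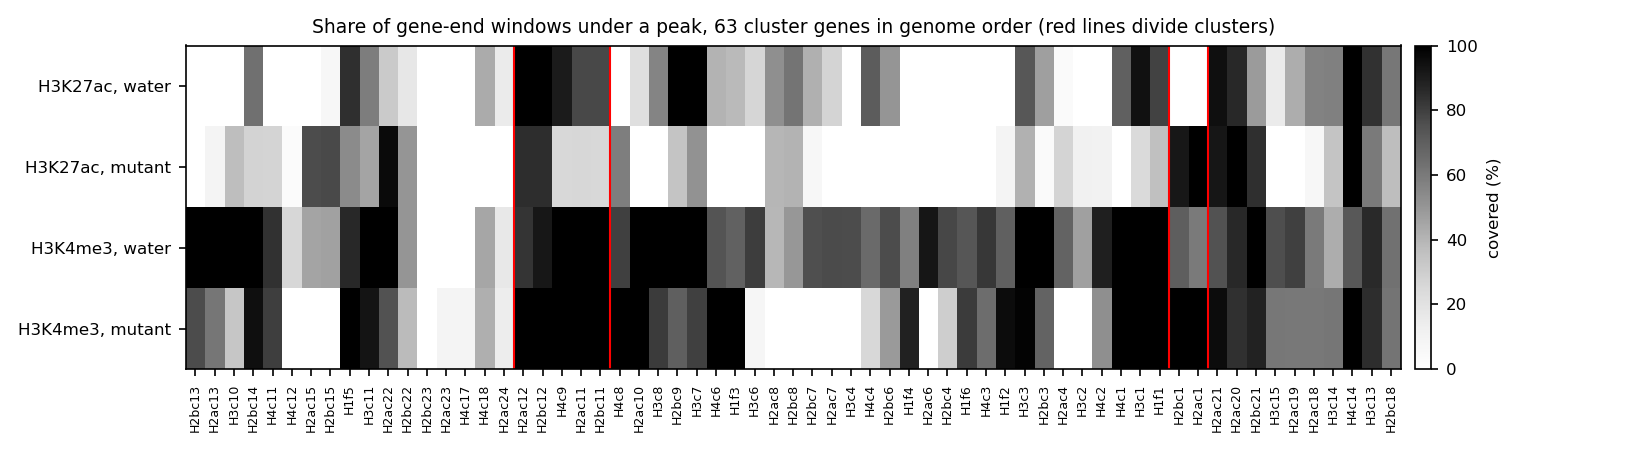
Share of the gene-end windows under a peak (grey scale, percent) for the 63 cluster genes in genome order (horizontal axis) in each of the 4 lists (rows), with red lines between clusters. In the H3K4me3 rows the 11 genes that are white in mutant only stand next to one another in 4 runs, and H2bc1 and H2ac1 are the genes that go from 0 to above 90% in the H3K27ac rows.

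The marks were then read together. In water 45 histone genes had both marks (67.2%, against 52.4% of all genes), 19 had H3K4me3 alone, none had H3K27ac alone and 3 had neither. In mutant embryos 34 had both (50.7%, against 53.1%), 22 had H3K4me3 alone, 8 had H3K27ac alone and 3 had neither. Both marks were thus found together at 11 fewer histone genes in the mutant list, while the share over all genes was nearly the same. Of all 20665 genes, 4962 in water and 4540 in mutant embryos had H3K4me3 alone. H3K27ac alone was found at 805 and 1277 of them, and neither mark at 4070 and 3871. Without the 9 near-identical copies both marks were at 39 of 58 genes in water (67.2%) and 32 in mutant (55.2%), so the mutant share was then above that of all genes and not below it.

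Of the 45 genes with both marks in water, 26 had both in mutant embryos (57.8%, against 76.8% of all genes with both in water). H3K4me3 alone was found in mutant embryos at 13 (28.9%, against 18.1%): H1f3, H1f8, H2ac10, H2ac19, H2ac24, H2bc6, H3c15, H3c6, H3c8, H4c1, H4c18, H4c4 and H4c6. Of these, H2ac19, H2ac24, H3c15 and H4c18 are among the near-identical copies, and without the copies the count was 9 of 39 (23.1%). H3K27ac alone was found at 5 (11.1%, against 3.22%): H2ac4, H2ac8, H2bc7, H2bc8 and H2bc15. At H2bc15 the H3K27ac peaks of the 2 lists lay at different places in the window and did not overlap. H2ac7 had neither mark in mutant embryos. The 8 genes with H3K27ac and no H3K4me3 in mutant embryos were the 5 just listed and H2ac15, H3c2 and H4c12, which had H3K4me3 alone in water. At H2ac8 and H2bc8, for example, the whole gene body lay under H3K4me3 in water and under a 1799 bp H3K27ac peak without H3K4me3 in mutant embryos.

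Coverage gave a finer measure than presence. The share of the windows under H3K4me3 was lower in mutant embryos at 39 of 67 histone genes, higher at 20 and equal at 8, where over all protein-coding genes it was lower at 6754, higher at 8922 and equal at 4989. The mean difference was -12.6 percentage points, against 1.5 over all genes, but the median was only -2.93 points, against 0. The histone genes began higher, with a mean of 73.5% in water against 37.9% over all genes. Their windows are also shorter than those of long genes, and the comparison is not matched for either. The share under H3K27ac was lower at 37, higher at 18 and equal at 12, against 7841, 6751 and 6073 over all genes. Its mean difference was -9.15 points, against -3.6, and its median -14.9 points, against 0. H2ac6, for example, had 92.3% of its window under H3K4me3 in water and 0% in mutant. H1f4 had 57.5% and 88.3%, and H1f3 68.9% and 100%, and none of the 6 cluster H1 genes had a lower value in mutant than in water. The mean over these 6 genes was 76% in water and 94.2% in mutant, against 37.9% and 39.4% over all genes. For the 17 H2A genes the mean was 69.6% and 50.5%, and for the H2B genes 75% and 54.7%. For H3 it was 84% and 58.4%, and for H4 68.2% and 64.4%. The families are small, and all but H1 include near-identical copies.

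Most histone genes are short, and a single peak often covered one whole. H3K4me3 peaks covered at least 50% of the body of 56 genes in water (83.6%, against 22.0% of all genes) and of 40 in mutant (59.7%, against 23.3%). H3K27ac peaks did so at 25 (37.3%, against 21.2%) and 22 (32.8%, against 14.9%). The comparison with all genes is not matched for length. H3c10, H3c6 and H4c4 had H3K4me3 over the whole body in water and beside the gene but not on it in mutant embryos, and so count as marked in both, as did H2ac19 among the near-identical copies.

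Neighbouring histone genes often shared a peak. There were 26 H3K27ac peaks at histone genes in each condition, and 38 H3K4me3 peaks in water and 30 in mutant. Their median widths were 3101 and 2624.5 bp for H3K27ac and 3843.5 and 5293.5 bp for H3K4me3. Over all peaks, at genes or not, they were 1205, 1088, 1695 and 1765 bp. Counted by gene, the median widest H3K27ac peak at marked histone genes was 5259 bp in water and 3461 bp in mutant, narrower than the 7669 and 4320.5 bp over all marked genes. That of H3K4me3 was 7027 and 8835 bp, wider than the 5286 and 7093 bp over all marked genes. Between 15 and 24 peaks of a list reached 2 or more histone genes, and 1 peak reached up to 6. Of the H3K4me3 peaks at histone genes, 81.6% in water and 96.7% in mutant overlapped a peak of the other condition, against 48.7% and 45.9% of all peaks. Thus 29 of the 30 mutant H3K4me3 peaks at histone genes lay where water also had one. Among the 53 genes with H3K4me3 in both conditions, the widest peak was wider in mutant at 34 and narrower at 19 (35.8%, close to the 36.9% of all genes). Among the 31 with H3K27ac in both, it was narrower at 15 (48.4%, against 66.8% of all genes) and wider at 16. The median ratio of mutant to water width was 1.11 for these 31 genes, 0.65 for the 29 of them in the clusters and 0.625 for all genes.

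The chromosome 13 genes fall into 4 groups where neighbours more than 100 kb apart are divided: A with 17 genes (21715711 to 21833475), B with 5 (22035122 to 22043658), C with 29 (23531044 to 23764412) and D with H2bc1 and H2ac1. With 2 kb on either side these groups span 377 kb. H3K27ac covered 29% of them in water and 15.6% in mutant embryos, or 109 and 58.9 kb, a ratio of 0.539. The 1846 kb between the groups went the other way, with 5.53% and 8.56% covered, a ratio of 1.55. This ratio was 1.58 in the 198 kb between A and B, 1.1 in the 1483 kb between B and C and 5.87 in the 165 kb between C and D. The rest of chromosome 13 had a ratio of 1.08 and chromosomes 1 to 19 together 0.981. Of the bases under H3K27ac in water, 26.2% were also under it in mutant embryos in the groups, 28% between the groups, 37.6% in the rest of chromosome 13 and 43.6% over chromosomes 1 to 19.

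The groups differed from one another. In C, the largest, H3K27ac covered 22.3% in water and 8.13% in mutant (ratio 0.365) and H3K4me3 41.6% and 33.7% (0.812). In A the values were 36.9% and 22.5% for H3K27ac (0.611) and 48.9% and 46.2% for H3K4me3 (0.945). In the small group B, H3K27ac covered 92% and 58.4% and H3K4me3 94% and 100%. Group D, the male germ line pair, had 0% and 93.2% for H3K27ac and 59.8% and 100% for H3K4me3. The lower H3K27ac coverage thus held for A, B and C and not for D. When groups up to 200 kb apart were joined, which adds the sequence between C and D, the ratio for all groups was 0.825.

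H3K4me3 coverage of the 4 groups as a whole was 46% in water and 40.9% in mutant, a ratio of 0.89, against 1.02 between the groups, 1.10 in the rest of chromosome 13 and 1.11 over chromosomes 1 to 19. Of the H3K4me3 bases in the groups, 47.4% lay under H3K27ac in water and 23.8% in mutant. Over chromosomes 1 to 19 these shares were 53% and 36.4%.

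**Figure D3:**
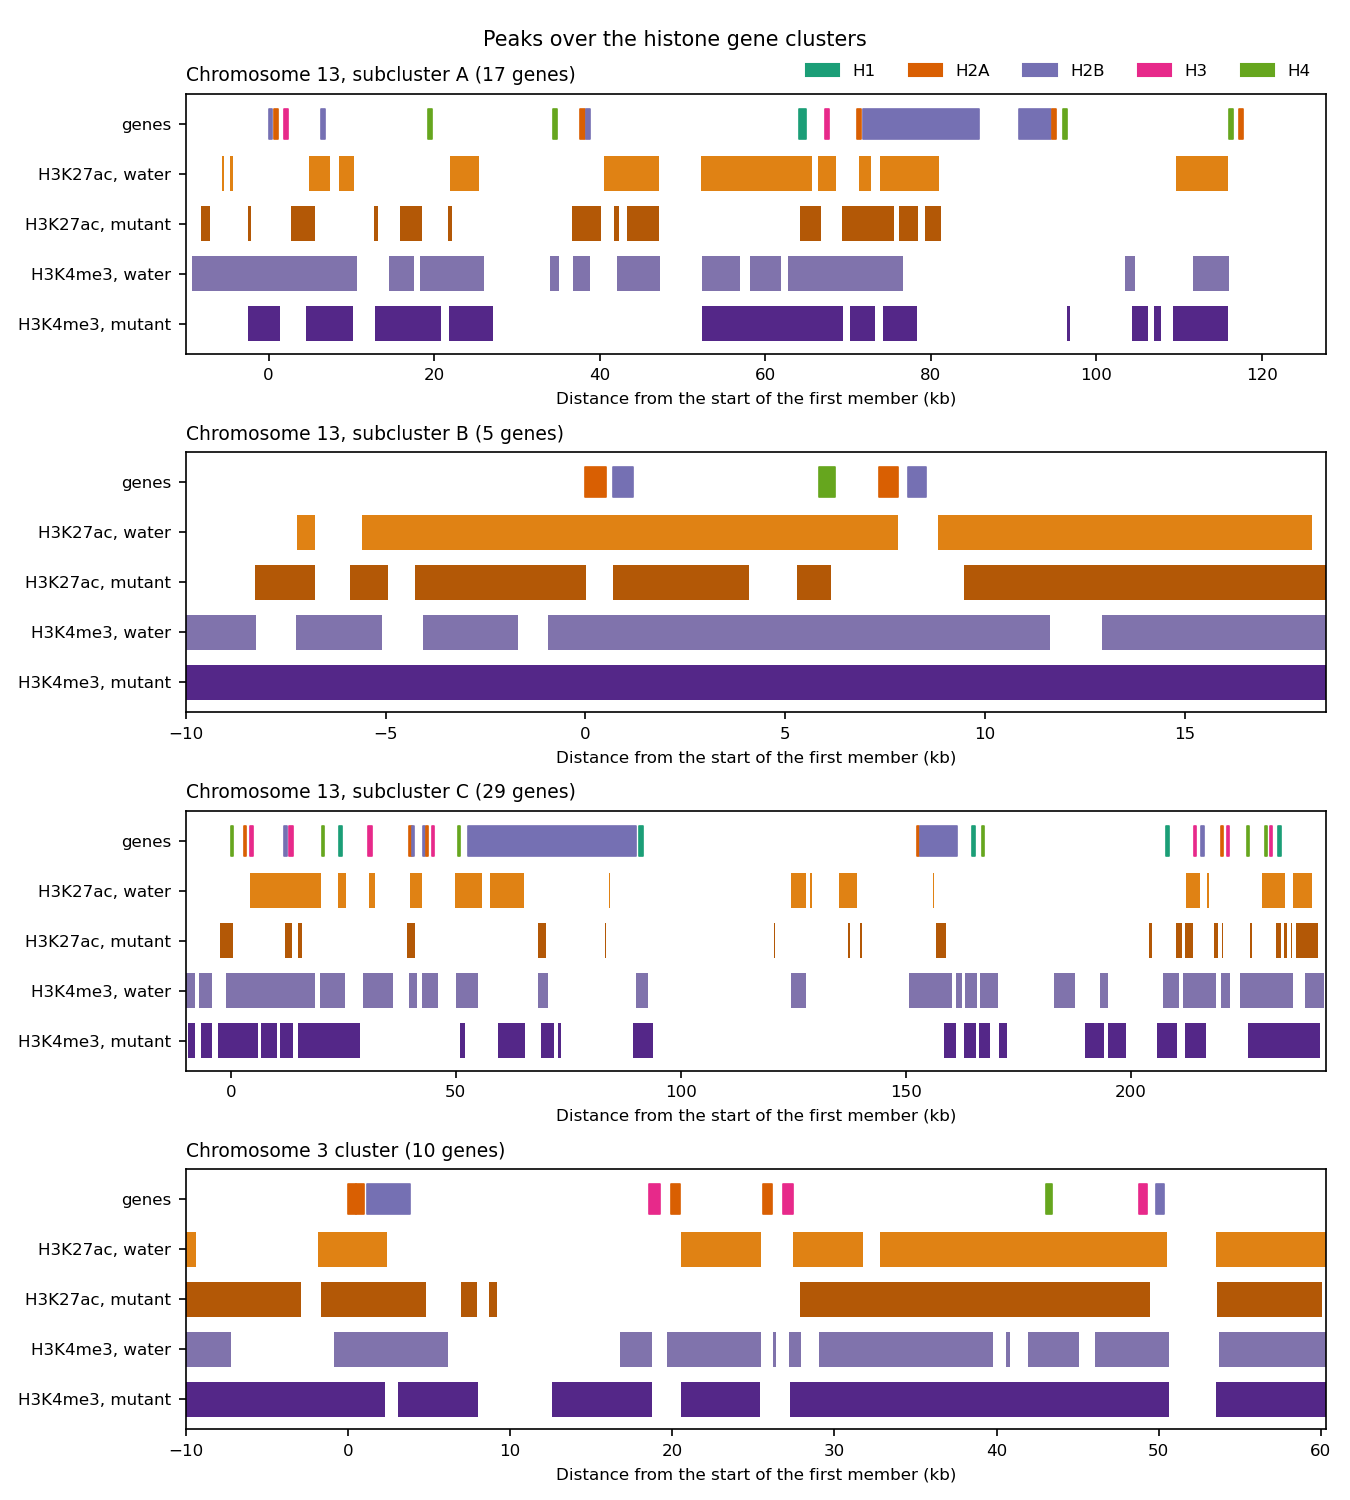
Peaks of the 4 lists (rows, coloured bars) under the histone genes (top row of each panel, coloured by family) of 3 groups on chromosome 13 and of the cluster on chromosome 3, by distance from the start of the first gene in kb. In group C the H3K27ac peaks cover 22.3% of the span in water and 8.13% in mutant embryos, and in group B a single H3K4me3 peak spans all 5 genes in each condition, 12559 bp wide in water and 35040 bp in mutant.

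**Figure D4:**
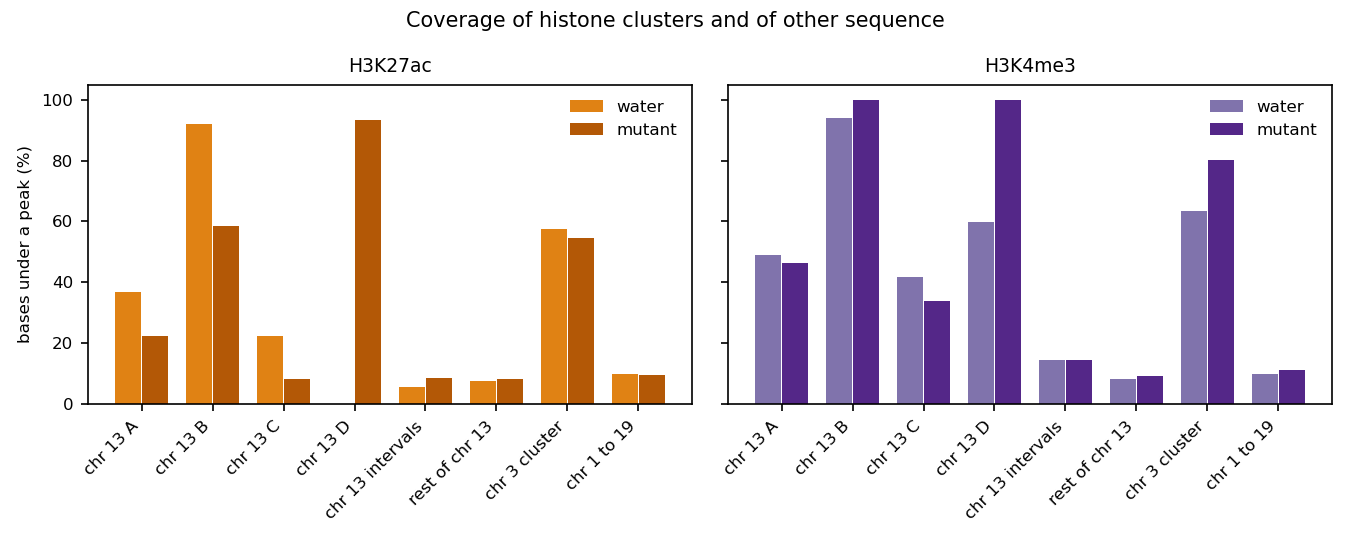
Share of bases under a peak (vertical axis, percent) in the 4 groups and the intervals of chromosome 13, the rest of that chromosome, the chromosome 3 cluster and chromosomes 1 to 19, 1 panel per mark; each bar is 1 peak list, with no error. H3K27ac bars are lower in mutant than in water for groups A, B and C and higher for group D and the intervals.

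The 5 genes of group B (H2ac12, H2bc12, H4c9, H2ac11 and H2bc11) lay under the widest peak at any of the 67 genes. In mutant embryos a single H3K4me3 peak of 35040 bp (22019909 to 22054948) spanned them all, as did a single peak of 12559 bp in water. For H3K27ac, a 13397 bp peak in water reached all 5 genes, with a second peak of 9375 bp at H2ac11 and H2bc11. In mutant embryos peaks of 4302, 3403, 835 and 15870 bp lay there, and 97.5% of the H2ac11 gene was covered in water and 0% in mutant. H2bc11 had no covered base in the gene in either condition. The share of the window under H3K27ac was 90.3% in water and 25% in mutant at H4c9, and 100% and 85.1% at H2ac12.

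The chromosome 3 cluster (96219885 to 96270192) holds 10 genes. H3K27ac marked all 10 in water and 8 in mutant, against 56.3% and 59.3% of all genes, and H3K4me3 marked all 10 in both, against 76.4% and 75.1%. The loss of H3K27ac at 20% of the genes was near the 22.6% of all genes, and both genes concerned, H3c15 and H2ac19, are near-identical copies. H3K27ac covered 57.5% and 54.4% of its 54.3 kb, and H3K4me3 63.3% and 80.3%. A 17744 bp H3K27ac peak in water and a 21598 bp one in mutant lay over H4c14 and H3c13, whose bodies were covered completely in both, and H2bc18 was covered completely in water and lay 343 bp from the peak in mutant. At H2ac21 and H2ac20, at the other end, both marks covered the whole gene in all 4 lists, and at H2bc21 H3K27ac covered 45.6% of the gene in water and 100% in mutant. Between these ends lie the near-identical copies H3c15, H2ac19, H2ac18 and H3c14, where H3K27ac covered 15% to 57.7% of the windows in water and 0% to 34.1% in mutant.

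Some peaks of different lists ended close to one another beside copied genes. Beside H2ac18, peaks of 3 lists ended at 96245346, 96245337 and 96245314. Beside H4c18, peaks of 3 lists ended less closely together, at 21831690, 21831766 and 21831637, short of the 3′ end of this minus-strand gene at 21831792. The 5 copied genes on chromosome 13 (H2bc23, H2ac23, H4c17, H4c18 and H2ac24) had no covered base in the gene in any list. Over all peaks at histone genes, 4 of 240 edges had edges of at least 2 other lists within 50 bp (1.67%), against 0.271% of all edges on chromosomes 1 to 19. Of these 4, the site beside H2ac18 gave 3, once for each list, and the other, at 96206607, bounds a peak at H2ac20, H2ac21 and H2bc21, which are not among the copies. The part of read placement in these edges was not tested.

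The linker variants outside the clusters kept H3K4me3. H1f0, a variant of non-dividing cells, had an H3K27ac peak of 2637 bp in water and 14599 bp in mutant, and 41.9% and 100% of its window under it. H1f10 had peaks of 2945 and 10425 bp, but 75.8% and 36.3% of its window covered. H1f8, the oocyte linker histone, had a 1205 bp peak in water and none within 26129 bp in mutant, and its H3K4me3 peak measured 2844 and 759 bp. H1f7, a testis variant, had no H3K27ac, and its H3K4me3 peak measured 2286 and 8279 bp.

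Other genes within the chromosome 13 region were read beside the histone genes. The 51 protein-coding genes there that the rule did not take in include 36 vomeronasal receptor genes (Vmn1r), of which H3K27ac marked 4 in water and 6 in mutant. Of the other 15, H3K27ac marked 3 in water (20%) and 10 in mutant (66.7%), against 56.3% and 59.3% of all genes. H3K4me3 marked 12 and 9 of these 15 (80% and 60%), against 76.4% and 75.1% of all genes. Those with H3K27ac in mutant only were Zfp184, Pom121l2, Prss16, Zfp322a, Trim38, Slc17a1, Slc17a2 and Slc17a3, and in each list 32 of the 53 histone genes around them were marked. Histone genes missed by the symbol rule were looked up as well. H2aw and H2bu2, a neighbouring pair on chromosome 11, had H3K27ac peaks of 1509 and 702 bp in water and none in mutant, while their H3K4me3 peaks measured 3982 and 2374 bp in water and 10848 and 4761 bp in mutant. H4bc24, at the edge of group A, had no H3K27ac, and a 4296 bp H3K4me3 peak reached its window in water only.

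Genes that regulate the histone genes were read from a list of 31, of which 29 lie on chromosomes 1 to 19 (Cstf2 and Atrx lie on the X). H3K27ac marked 26 of the 29 in water and 23 in mutant, against 56.3% and 59.3% of all genes. H3K4me3 marked all 29 in both, against 76.4% and 75.1%. Of the 21 with H3K27ac in both, the widest peak was narrower in mutant at 15 and wider at 6, where 66.8% of all genes with H3K27ac in both had a narrower one. For H3K4me3 it was narrower at 15 and wider at 14, where 36.9% of all genes with H3K4me3 in both had a narrower one.

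Among the 9 factors of transcription, Npat had a widest H3K27ac peak of 13020 bp in water and 2209 bp in mutant. Casp8ap2 (FLASH), which joins Npat in the histone locus body, had 13000 and 13137 bp. Hinfp, which binds the H4 element, had 18260 and 15579 bp for H3K27ac and 8913 and 42378 bp for H3K4me3, a peak it shared with H2ax. Pou2f1, which binds the octamer, had a 396 bp H3K27ac peak in water and none in mutant. Ccne1 and Ccne2 (cyclin E) and Cdk2 had both marks in both lists.

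Among the 11 factors of 3′ end processing, Slbp, which binds the stem-loop, had H3K27ac peaks of 12884 and 13526 bp. The U7 particle's protein Lsm10 had one of 19841 bp in water and none in mutant, and its partner Lsm11 none in water and 1913 bp in mutant. Sympk, the scaffold of the cleavage complex, had 8903 bp in water only, Eri1, a nuclease that trims histone mRNA, had 2119 bp in mutant only, and Srrt had none in either.

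Among the 9 histone chaperones, Nasp, which binds H3 and H4, had the widest H3K27ac peak of the list in water, 64947 bp, and 8439 bp in mutant. Asf1b had 27315 and 19022 bp, and Chaf1a, a subunit of the assembly factor CAF-1 that acts at replication forks, 14265 and 15838 bp. Hira, which deposits the variant H3.3, had 23051 and 4665 bp, and its partners Ubn1 (10912 bp) and Cabin1 (6467 bp) had a peak in water only. The chaperones held both orders, with 5 narrower and 2 wider of the 7 marked in both lists, against 66.8% narrower over all genes.

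Replication-independent histone genes lie outside the clusters. Of 14 listed, which include the 4 linker variants above, H3K27ac marked 10 in water and 9 in mutant, against 56.3% and 59.3% of all genes, and H3K4me3 14 and 13, against 76.4% and 75.1%. H3f3a and H3f3b, which encode H3.3, had H3K27ac peaks of 42462 and 35409 bp in water, and 8298 bp and none in mutant. H2az2 had 41637 and 485 bp and H2ax 43901 and 799 bp. H2az1 had 15404 and 5848 bp and Cenpa, the centromeric H3, 13412 and 8877 bp. At H3f3a, H3f3b, H2az2 and H2ax the water peaks were wider than any at the clusters, where the widest H3K27ac peak in water measured 17744 bp. H3K27ac was in mutant only at Macroh2a2 and Hils1, and H2aj had it in water only.

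**Figure D5:**
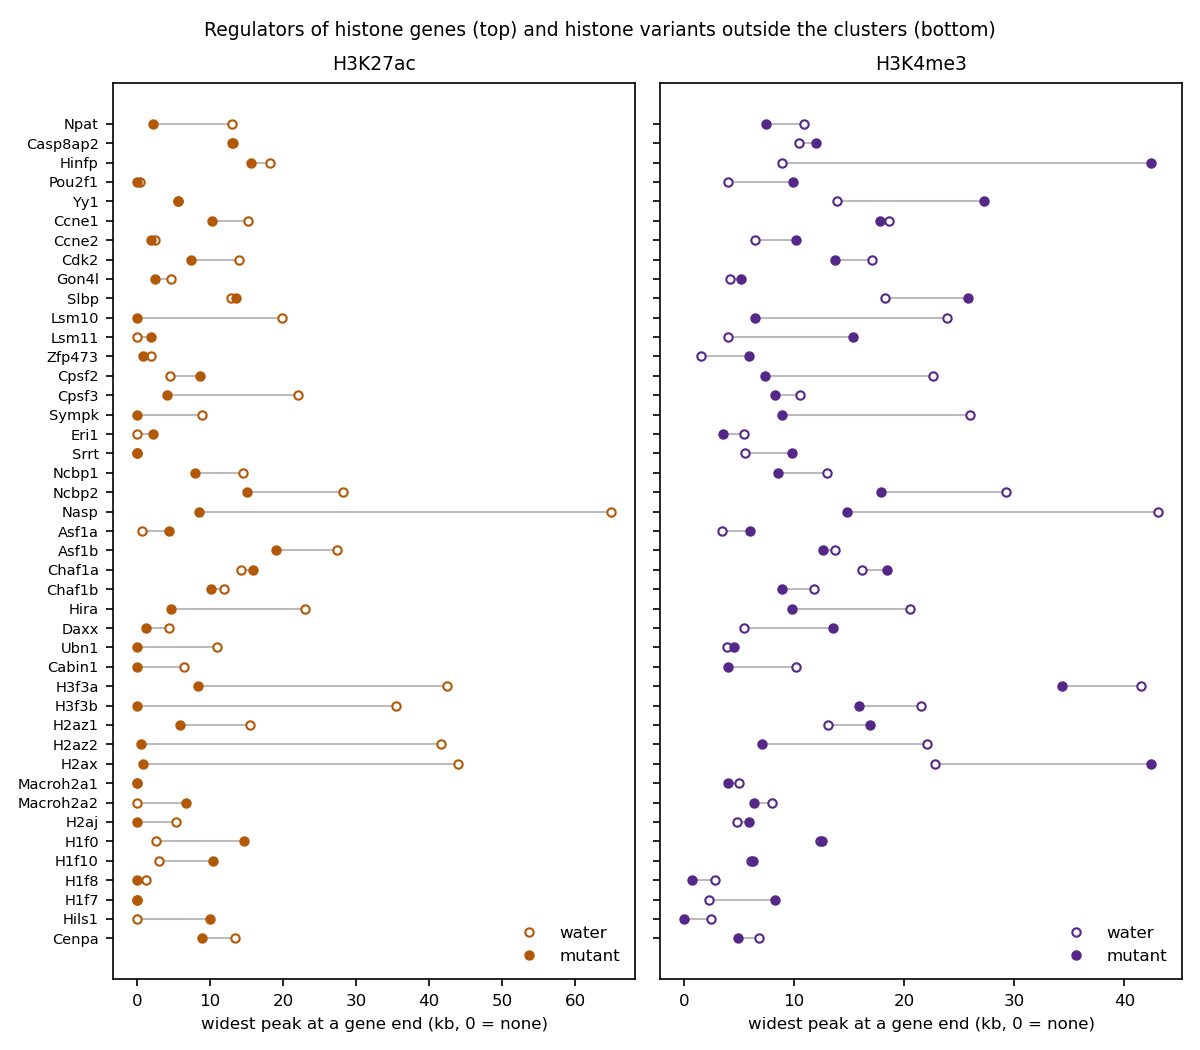
Width of the widest peak at a gene end (horizontal axis, kb; 0 means no peak) in water (open) and mutant (filled) embryos for regulators of the histone genes and for replication-independent histone variants, 1 panel per mark. The H3K27ac points of Nasp, H3f3b, H2ax and H2az2 lie far to the left in mutant, while those of Slbp and Casp8ap2 lie close together (12884 and 13526 bp at Slbp).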

How the data were processed

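Chromatin immunoprecipitation and input libraries, 16 in all, were grouped by their titles. Per the labels, each immunoprecipitation group of 2 libraries has 1 list, deposited by the authors as peak positions (chromosome, start and end) with no height, score or p-value. Per the submitters' processing notes, CASAVA, Trimmomatic, Bowtie2, SAMtools, Picard, MACS2 and deepTools were used with mm10 (GRCm38). Their settings, the handling of reads that fit several places and whether libraries were pooled are not given in the sources used here. Depth is unknown and no list per library was analysed here.

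Positions are printed 1-based. Genes came from a RefSeq table of GRCm38.p6. Peaks were intersected with windows of 2 kb around gene ends in Python 3.11.15 (numpy 2.4.6, pandas 2.3.3, scipy 1.17.1, matplotlib 3.10.9), and the code was tested on simulated data. Lost means marked in water only and gained marked in mutant only. Groups on chromosome 13 were divided at gaps over 100 kb. Strand was known for the 62 genes with a promoter sequence. Protein sequences were not used here.

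The members and lists were chosen with earlier results of these data known. Named are the genes on chromosomes 3, 6 and 15, those whose state differed between conditions, those under the widest peaks, and listed regulators and variants; H1f4, H1f6, H2bc9, H3c3, H3c7 and the genes of the divergent pairs were named after their values were seen. No test was made, since each condition has 1 list per mark. Alternatives covered window size, overlap, joining, list length, width and gap.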

Additional observations from a re-analysis of the deposited data

How the results depend on the processing

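No paired analysis was possible because only 1 list describes both libraries of a group. For the same reason no replicate could be left out. The calls of single histone genes were the same as in the main setting for 90.3% to 100% of calls, depending on the alternative. Of the recomputed counts, covered shares and ratios that answer a comparison, 198 were within 1.5 times of the main value, 7 were not and 1 changed direction. The number of histone genes gaining H3K4me3, 3 in the main setting, was 1 with windows of 1 kb and 0 with an overlap of at least 500 bp, with the wider 50% of each list, and without the 9 genes whose promoters share 100 bases or more with another. The last of these sets was chosen after seeing the data, as was the set with 3 histone genes outside the rule. With windows of 5 kb, 9 genes lost and 2 gained H3K27ac, against 14 and 11. Dividing chromosome 13 at gaps over 200 kb gave an H3K27ac ratio of 0.825 for the groups, against 0.539, because the sequence between C and D is then taken in. The H3K4me3 ratio between the groups was 1.02, and 0.965 with the wider 50% of each list; the cause was not tested. Peaks have no height, so the strength of a mark inside a peak is not measured, and a gene without a peak may carry a signal under the caller's threshold.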
